A study of Arabidopsis thaliana with 28 samples.

Results

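The cytosolic ribosome of Arabidopsis thaliana is built from a small (40S) and a large (60S) subunit, and the genes described here encode proteins of the large one. The members were given as a list of 60 loci in 23 protein families from L3 to L24. Of these, 34 loci in 16 families had a probe set that the platform annotation ties to that gene alone. Another 4 loci (AT1G74050 and AT1G74060 of family L6, AT1G33120 and AT1G33140 of family L9) lay on probe sets shared with other genes, and 22 had no probe set named for them, so neither kind was analysed here. The 34 probe sets were set against all 13513 probe sets with a single named gene.

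The large subunit joins amino acids into protein, and its proteins fold around the ribosomal RNA that does the chemistry. In plants each of these proteins is encoded by several paralogous genes whose products are nearly alike, and the transcripts of the whole set usually move together with growth and with the supply of sugar and energy. Oxygen shortage limits respiration in roots and is known to lower protein synthesis, largely by holding messenger RNA back from ribosomes.

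The series measured root RNA of Col-2 seedlings on 28 one-colour arrays, 1 per sample. Seedlings grew on vertical agar with 1% sucrose in a cycle of 12 h light, and 10 days after germination all of them, the 21% oxygen controls included, were moved to continuous darkness under a gas stream with 350 ppm CO2. Low oxygen was 1%, 4% or 8%, the control was 21%, and roots were taken after 0.5, 2 or 48 h, which makes 12 groups of 2 or 3 arrays. After 0.5 h there were 2, 2, 2 and 3 arrays at 1%, 4%, 8% and 21% oxygen, after 2 h likewise 2, 2, 2 and 3, and after 48 h 2, 2, 3 and 3. The labels do not say whether replicates came from separate cultures, so p-values measure the spread between these arrays, which may be partly technical. Plants at 48 h were also older than plants at 2 h, and duration of treatment, time in darkness and age cannot be told apart.

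Each replicate carries a letter, A to G, and only letter F occurs in all groups of the 2 h and 48 h plants. Letters A and B occur only at 48 h. The 3 arrays of letter A stood apart for these genes: the members took up 1.78% to 1.92% of the single-gene signal there, against 2.23% to 3.03% in the other arrays at 48 h and 3.04% to 3.59% at 2 h. The counts and medians on 48 h are therefore also given without letter A or with the letter as a block, and those against 2 h within letter F. One array, 8% oxygen at 48 h with letter B, is called a control in 1 label, and its title and stated oxygen level put it at 8%. Of 12 root marker genes none had a probe set of its own, so the tissue label could not be checked with them. The leaf marker AT2G39730, Rubisco activase, read 28.3 to 168 at 48 h and 35.4 to 199 at 2 h. Over all durations it read 28.3 to 34.15 in letter A, 48.89 to 59.74 in B and 35.43 to 63.47 in D. Letter F read 94.72 to 236.6, and letters C, E and G 62.65 to 199.1. What lies behind these differences between letters was not tested.

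Signals are the authors' MAS5 values, scaled so that the trimmed mean of each array is 100, and differences are on the log2(signal + 6) scale, where 1 unit is a doubling. A probe set was called when its Benjamini-Hochberg adjusted p from limma, over all 13513 probe sets, was under 0.05. Levels of different probe sets were not compared with each other. In whole roots, fewer cells of a type and less RNA per cell cannot be told apart.

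Most of the 60S genes were lower after 48 h than after 2 h of treatment. Averaged over the 4 oxygen levels, 23 of the 34 members fell and none rose, where 11.6% of all probe sets fell. The median member difference was -0.48, against 0.06 over all probe sets. Of the 34 members 32 lay below 0, as did 41.1% of all probe sets. Bright probe sets were called lower more often than all probe sets: among the 1306 probe sets with a 2 h mean signal from 241.7 to 2400, the range that holds the 32 brighter members, 33% were called lower and the median was -0.19. The remaining 2 members were dim, with signals of 3.42 to 56.1 in all arrays of both durations, and were not called.

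The fall was present without the arrays of letter A, at a smaller size. Without them, 9 of 34 members were called lower, where 8.4% of all probe sets were, and the median was -0.30. The shares of all probe sets in this and the later counts are not matched to the brightness of the members. Within letter F alone, with 4 arrays at 48 h and 4 at 2 h, 19 of 34 members were called lower, where 11.8% of all probe sets were, and the median was -0.46. In letter F, 24 members had every 48 h array below every 2 h array, where 14.2% of all probe sets did. With the letter as a block 27 members were called lower, where 17.4% of all probe sets were. Only letter F occurs at 48 h and at 2 h, so the block links these durations through letter F. The block and letter F alone are therefore not separate checks. The letter F fit also takes its 4 oxygen levels as the replicates of a duration. The members called as scaled, with the block and in letter F numbered 18, and 8 of these were called without letter A too. These 8 were AT5G22440, AT3G16780, AT5G02870, AT2G20450, AT1G18540, AT1G27400, AT4G10450 and AT4G13170. Apart from them only AT1G80750 was called without letter A.

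**Figure D1:**
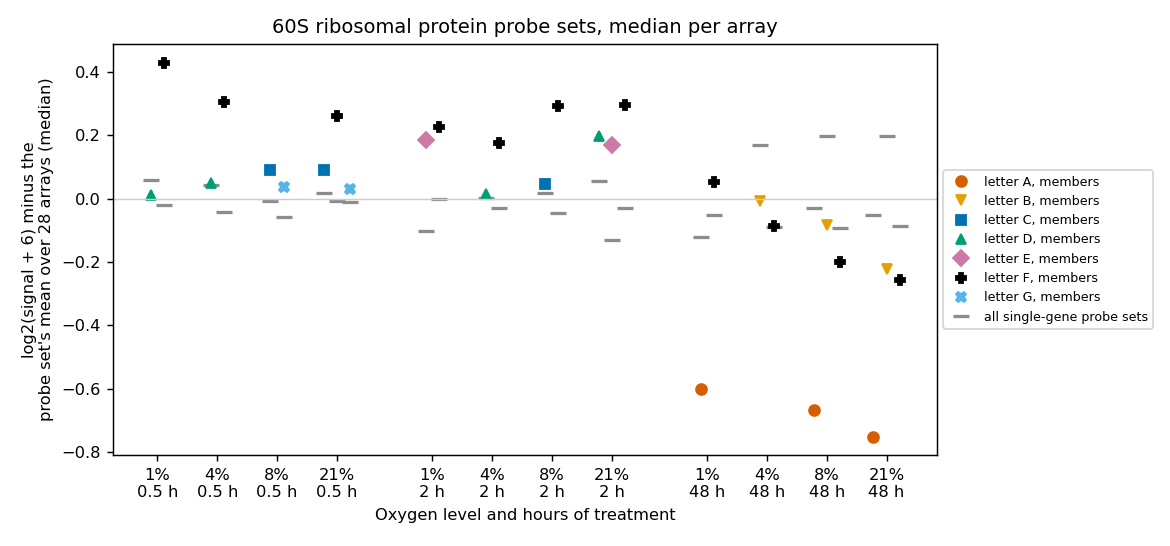
Median over the 34 members of log2(signal + 6) minus each probe set's mean over the 28 arrays, one symbol per array and letter, with the same median over all 13513 probe sets as a grey dash. The members lie at 0.01 to 0.43 at 0.5 h, at 0.02 to 0.30 at 2 h and at -0.75 to 0.05 at 48 h, where letter A is lowest.

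L10a forms the stalk that guides spent transfer RNA out of the ribosome, and AT5G22440, one of its 3 measured genes, had the smallest adjusted p of the members. Its 48 h signals were 276 to 702 with a median of 581, against 966 to 1115 with a median of 1050 at 2 h. No 48 h array reached the lowest 2 h array, a pattern that 2.14% of all probe sets showed in this direction. Its difference was -1.02 ± 0.15 (SE, 10 against 9 arrays), with an adjusted p of 8.6e-05 from limma, and it was -0.86 in letter F and -0.73 without letter A. Its paralogues AT1G08360 and AT2G27530 (PGY1) also fell, by 0.38 and 0.38 on the log2 scale. Neither paralogue was called without letter A, where the differences were -0.33 and -0.21, and AT2G27530 was not called in letter F. In letter F, AT1G08360 read 1245, 1120, 1029 and 1015 at 1%, 4%, 8% and 21% oxygen after 48 h, against 1468, 1509, 1520 and 1592 after 2 h.

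L12 forms the base of the other stalk, which recruits translation factors. Its 3 genes all fell, AT3G53430 by 0.73, AT5G60670 by 0.59 and AT2G37190 by 0.43 on the log2 scale. None of the 3 was called without letter A, where their differences were -0.41, -0.39 and -0.27. AT4G10450, the one L9 gene measured, lies in a family that sits near the factor-binding site. It read 175 to 654 at 48 h, against 445 to 868 at 2 h, and fell by 1.04 ± 0.23 (SE), with an adjusted p of 0.00293 from limma.

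L4 and L17 line the tunnel through which the new protein leaves. AT5G02870 (L4) read 1410, 1006, 997 and 647 at 1%, 4%, 8% and 21% oxygen in the letter F arrays at 48 h, against 1759, 1763, 1810 and 1868 in those at 2 h. The lowest of these letter F values at 48 h was thus at 21% oxygen. Every 2 h value in letter F was above every 48 h value, as for 14.2% of all probe sets. Over all arrays the durations overlapped, with 647 to 1410 at 48 h and 1312 to 2177 at 2 h. AT5G02870 fell there by 0.78 ± 0.14 (SE, adjusted p = 0.00056 in limma), and its paralogue AT3G09630 fell by 0.52. AT3G09630 was not called without letter A, at -0.38. The L17 genes AT1G27400 and AT1G67430 fell by 0.54 and 0.47, and only the first was called without letter A, at -0.47.

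AT1G18540, the L6 gene with its own probe set, had all 10 arrays at 48 h (837 to 1234) below all 9 arrays at 2 h (1256 to 1674). The gap between the durations was narrow, and the difference was -0.51 ± 0.11 (SE, adjusted p = 0.00194 in limma), or -0.53 in letter F. Single members of other families fell too: AT2G47610 (L7a) by 0.45, AT5G27850 (L18) by 0.40 and AT2G34480 (L18a) by 0.57 on the log2 scale. None of these was called without letter A. Their paralogues AT3G62870 (L7a, -0.27) and AT3G14600 (L18a, -0.23) were not called as scaled and were called with the letter as a block, at -0.37 and -0.31.

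The measured members of families L13 and L8 were not called. AT5G23900 (L13) differed by -0.19 (adjusted p = 0.293 in limma), and the dim AT3G48960 (L13) by -0.06. The dim L8 gene AT3G51190, of the family at the heart of the catalytic centre, had the highest difference of all members, 0.55 ± 0.21 (SE, adjusted p = 0.066 in limma). Its signals were 11.2 to 56.1 at 48 h and 8.54 to 17.8 at 2 h. The 3 highest readings were the letter B arrays, at 27.3 to 56.1, and within letter F the difference was 0.03.

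**Figure D2:**
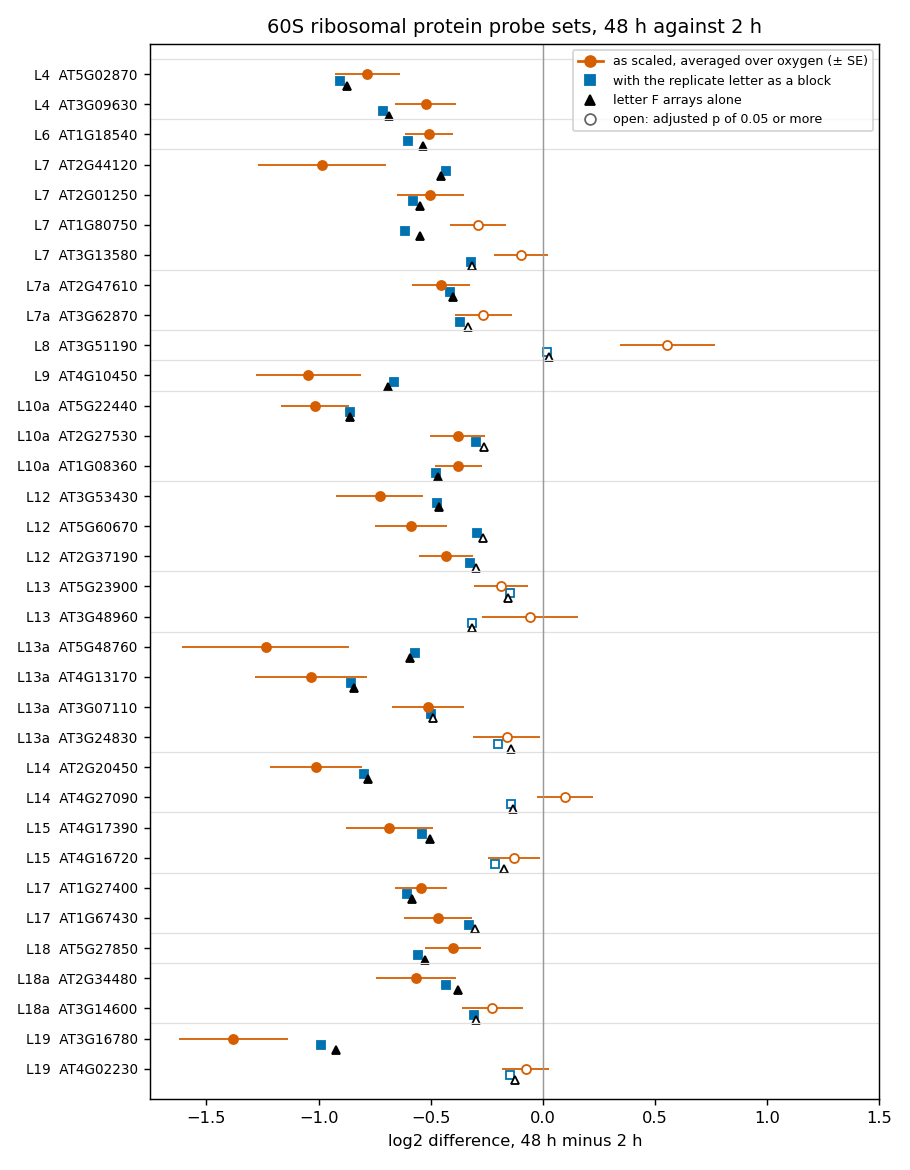
Log2 difference of each member, 48 h minus 2 h, by protein family: the average over 4 oxygen levels with its SE (circles), the fit with the letter as a block (squares) and letter F alone (triangles), filled where the adjusted p is under 0.05. Of the circles 23 are filled and all of these lie below 0.

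The members with the widest range of group means over the 12 groups were AT3G16780 (L19, 1.99 log2 units), AT5G48760 (L13a, 1.90), AT4G10450 (L9, 1.64) and AT4G13170 (L13a, 1.63), and each had its lowest mean in a 48 h group and its highest in a 2 h group. Of 12 families with at least 2 measured genes, 6 held a pair whose averaged differences between 48 h and 2 h lay over 0.5 apart, and in the other 6 the widest gap was 0.08 to 0.34. The differences between paralogues were not tested. To ask which members parted from the rest, the median of the 34 members was subtracted in each array and the same model was fitted to all probe sets. Taking off a falling median moves all probe sets up, to a median of 0.55, so the shares of all probe sets called on that scale are no measure for the members. On it 7 members were lower at 48 h, beside 2.86% of all probe sets: AT3G16780 (L19), AT5G48760 and AT4G13170 (L13a), AT4G10450 (L9), AT5G22440 (L10a), AT2G20450 (L14) and AT5G02870 (L4). Another 10 were higher, beside 64.4% of all probe sets. In letter F, with limma, AT5G22440 (adjusted p = 0.0145), AT3G16780 (0.0199), AT5G02870 (0.0343) and AT4G13170 (0.0471) were lower than the member median too. AT2G20450 (0.0525), AT4G10450 (0.167) and AT5G48760 (0.346) were not called there. Without the arrays of letter A the members called apart in either direction numbered 9.

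L19 has a long helix that reaches across to the small subunit, and its 2 measured genes had the widest gap of the 12 families. AT3G16780 read 519, 408, 278 and 356 at 1%, 4%, 8% and 21% oxygen in the letter F arrays at 48 h, against 663, 665, 777 and 809 in those at 2 h. AT4G02230 read 801, 958, 830 and 913 in the letter F arrays at 48 h, against 910, 954, 932 and 1022 at 2 h. The durations did not overlap for the first gene and overlapped for the second. Averaged over all arrays AT3G16780 fell by 1.38 ± 0.24 (SE, adjusted p = 0.000375 in limma), the largest fall of any member in this fit, while AT4G02230 differed by -0.08 ± 0.10 (adjusted p = 0.631). Relative to the member median AT3G16780 was lower by limma with an adjusted p of 0.000747 over all arrays and 0.0199 in letter F.

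The L14 genes made the next widest pair. AT2G20450 read 527, 488, 428 and 321 at 1%, 4%, 8% and 21% oxygen in letter F at 48 h, against 783, 702, 736 and 778 at 2 h. AT4G27090 read 2479, 2277, 2379 and 2106 in letter F at 48 h, against 2500, 2433, 2553 and 2632 at 2 h. AT2G20450 was thus lower in each 48 h array, while for AT4G27090 the ranges just overlapped. The averaged differences were -1.01 ± 0.20 for AT2G20450 (SE, adjusted p = 0.00131 in limma) and 0.10 ± 0.12 for AT4G27090 (adjusted p = 0.603). The letter B arrays of AT4G27090 were high, at 3217 to 3508, and its difference was -0.14 with the letter as a block.

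In L13a and L7 the size of the gap between paralogues moved with the letter, as it did in the other wide pairs. Between letters A and F in the same group, AT3G16780 differed by -1.31 and AT4G02230 by 0.07 (L19). AT2G20450 differed by -1.07 and AT4G27090 by -0.04 (L14), AT5G22440 by -0.88 and AT1G08360 by -0.02 (L10a). In human cells L13a is also known as a regulator that leaves the ribosome and silences certain messenger RNAs. AT5G48760 (L13a) read 83.9 to 174 in the letter A and B arrays at 48 h and 358 to 464 in letter F there, against 217 and 220 in the letter D arrays and 438 to 684 in the others at 2 h. Its averaged difference of -1.24 ± 0.37 (SE, adjusted p = 0.0218 in limma) became -0.57 with the letter as a block and -0.73 without letter A, where it was not called (adjusted p = 0.165). Within letter F it was -0.59 and was called (adjusted p = 0.0035 in limma), with every 48 h array below every 2 h array, as for 14.2% of all probe sets. Its paralogue AT3G24830 differed by -0.16, or -0.14 in letter F. AT3G07110 fell by 0.51 and AT4G13170 fell by 1.03, or 0.84 in letter F. AT3G07110 was called neither in letter F nor without letter A. AT2G44120 (L7) read 334 to 541 in letters A and B at 48 h and 954 to 1366 in letter F there, against 736 and 787 in letter D and 1367 to 1711 in the others at 2 h. Its averaged difference of -0.98 became -0.43 with the block, beside block values of -0.32 for AT3G13580, -0.58 for AT2G01250 and -0.61 for AT1G80750.

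All 4 measured L7 genes were called lower with the block. AT5G48760 and AT2G44120 were the members that differed most between letters D and F in the same group, by -1.43 and -1.02 on average over 4 groups, where the member median was -0.20. What the letters stand for is not stated, and the part of the letter in these differences was not tested beyond the block. In L15, AT4G17390 fell by 0.69 and AT4G16720 differed by -0.13, and within letter F these were -0.50 and -0.18. Without letter A AT4G17390 was not called, at -0.38.

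**Figure D3:**
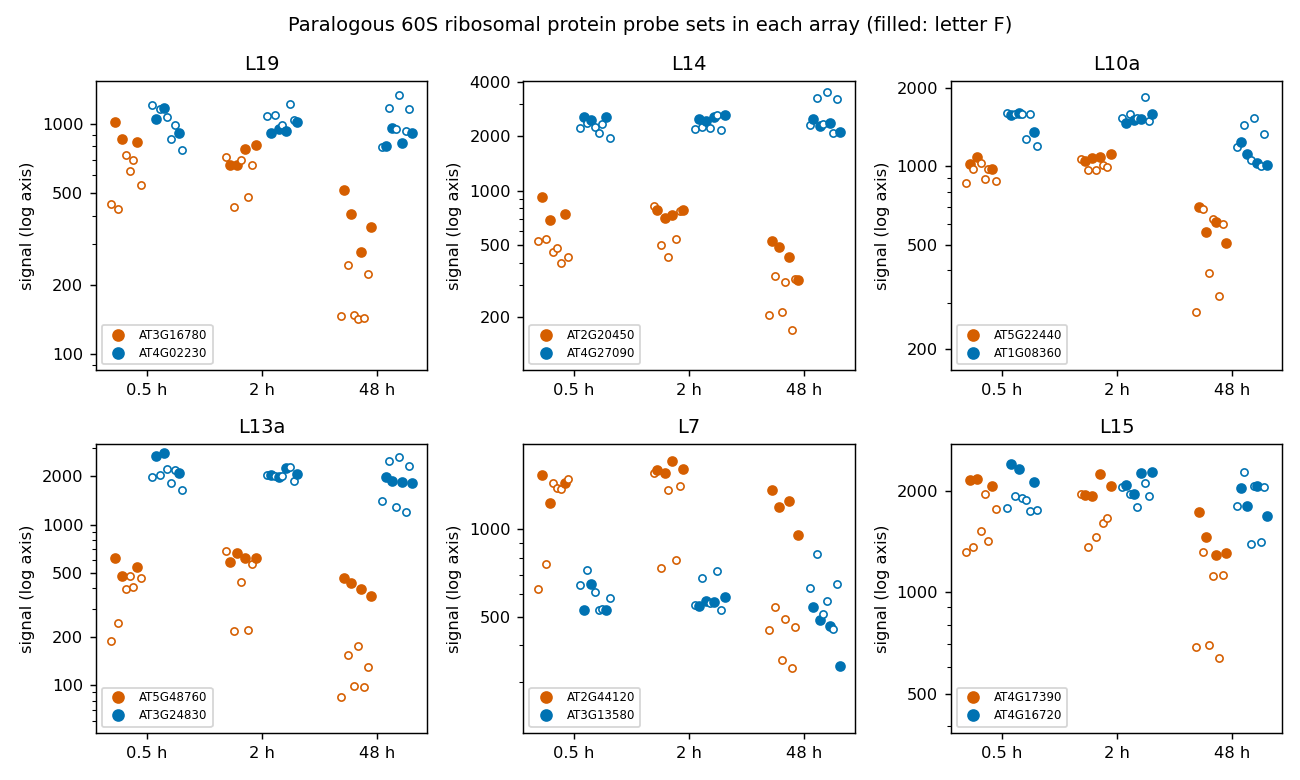
Signal in each array (log axis) of the paralogue pairs that differed by over 0.5 between 48 h and 2 h, with the duration on the x axis, oxygen from low to high within a duration and letter F filled. AT3G16780, AT2G20450, AT5G22440, AT5G48760 and AT2G44120 are lower in every filled 48 h point than in every filled 2 h point. The same holds for AT4G17390 and for the paralogues AT1G08360, AT3G24830 and AT3G13580. The filled points of AT4G02230, AT4G27090 and AT4G16720 overlap between the durations. The open points of AT5G48760 and AT2G44120 spread with the letter, and so do those of AT3G16780, AT2G20450, AT5G22440 and AT4G17390.

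In 21% oxygen alone, 7 of 34 members fell between 48 h and 2 h and none rose, where 3.11% of all probe sets fell. The median difference was -0.71, against 0.09 over all probe sets, and 23 members had all 3 arrays at 48 h below all 3 at 2 h, as had 10.5% of all probe sets. The 7 were AT5G22440 (-1.17), AT1G27400 (-0.89), AT5G02870 (-1.05), AT1G18540 (-0.75), AT2G20450 (-1.37), AT4G10450 (-1.42) and AT3G16780 (-1.47). With the letter as a block 27 members were called, where 11.2% of all probe sets were called lower. The count rested on few arrays: it was 0 without the 48 h array of letter A, 1 without the 2 h array of letter F, and 3 without the 48 h array of letter F or either of the other 2 h arrays.

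At the low oxygen levels fewer members were called between 48 h and 2 h. These comparisons hold fewer arrays: 2 against 2 at 1% and 4% and 3 against 2 at 8%, where 21% has 3 against 3. The median SE of the members was 0.313, 0.313 and 0.286, against 0.256 in 21% oxygen, so the counts are not directly comparable. As scaled 0, 0 and 1 fell at 1%, 4% and 8% oxygen, where 0.807%, 0.111% and 0.747% of all probe sets fell, and the medians were -0.51, -0.18 and -0.50. The 1 member was AT3G16780 (L19), which fell by 1.99 at 8% oxygen (adjusted p = 0.0423 in limma). With the letter as a block 3, 7 and 12 members fell, where 5.68%, 5.78% and 4.68% of all probe sets fell, and the medians were -0.33, -0.34 and -0.48. Without letter A 0, 0 and 2 members fell, where 0.237%, 0.414% and 0.918% of all probe sets fell. The member medians there were -0.17, -0.18 and -0.30.

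Between 2 h and 0.5 h no member was called, where 0.0518% of all probe sets were, and the median was 0.05, with 0 members at an unadjusted p under 0.05. Between 48 h and 0.5 h, 20 members fell, where 12.4% of all probe sets fell, with a median of -0.43. With the letter as a block 27 fell, where 15.1% of all probe sets fell, and without letter A 6 fell, where 9.86% did, with medians of -0.43 and -0.26.

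No 60S member was called between a low oxygen level and 21% oxygen at any duration, in the fit as scaled or with the letter as a block. The 3 oxygen levels of a duration share the 21% arrays, so their values are not independent of each other. As scaled, the share of all probe sets called was 0.0518%, 0.0444% and 0.0148% for 1%, 4% and 8% oxygen at 0.5 h, then 0.34%, 0.126% and 0.0222% at 2 h, and 0.0962%, 0.037% and 0% at 48 h. With the block it was 0.0222%, 0.0074% and 0.0148% at 0.5 h, 1.66%, 0.207% and 0.0148% at 2 h, and 2.27%, 0.17% and 0% at 48 h. Few probe sets of any kind were called in these comparisons, so a count of 0 members is near the background.

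The size of change that these arrays could have shown differed between the fits. With the block, 33 or 34 of the 34 members had a 95% interval within 1 log2 unit of 0 in each of the 9 comparisons. As scaled, 15 members had such an interval at 4% oxygen after 48 h and 26 to 28 in the other comparisons.

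At 0.5 h the member medians were 0.09, 0.12 and -0.0042 for 1%, 4% and 8% oxygen, and at 2 h they were -0.0035, -0.10 and -0.05. At 2 h the member with the lowest difference at 1% oxygen was AT1G18540 (L6), which read 1287 and 1287 at 1% oxygen, against 1674, 1648 and 1613 at 21%. Those groups did not overlap, as for 11.1% of all probe sets in this direction, and the difference was -0.35 ± 0.21 (SE, adjusted p = 0.999 in limma). The next lowest were AT5G02870 (L4, -0.33) and AT3G13580 (L7, -0.15), and the highest were AT5G48760 (L13a, 0.57), AT2G44120 (L7, 0.38) and AT2G20450 (L14, 0.22). The 3 highest were also low in letter D, which the 21% group holds and the 1% group does not, and with the block they were 0.09, 0.06 and 0.04.

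**Figure D4:**
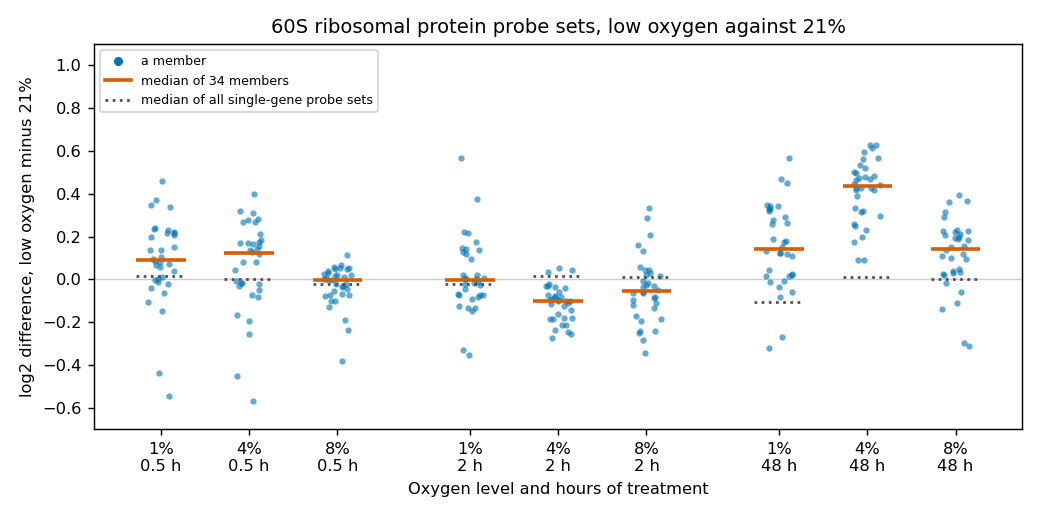
Log2 difference of each member (points), low oxygen minus 21% oxygen, for each oxygen level and duration, with the member median (orange) and the median of all probe sets (dotted). No member passes the test in any column, and at 48 h the member medians lie at 0.14, 0.44 and 0.14.

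At 48 h the members as a list lay above the 21% arrays at every low oxygen level, although no single one passed. The median was 0.14, 0.44 and 0.14 at 1%, 4% and 8% oxygen, against -0.11, 0.01 and 0.00 over all probe sets. Above 0 lay 27, 34 and 28 members, where 34%, 52.2% and 50.7% of all probe sets did. The members share their arrays, so these counts are not 34 separate observations. Between arrays of a group the member median had a pooled SD of 0.227, more than the medians at 1% and 8%. The 4% group has no array of letter A while the 21% group has one, and with the block its median was 0.18. At 1% oxygen the median was 0.29 with the block, and it was -0.24 without the letter F array of that group and 0.47 without its letter A array. Without all arrays of letter A the medians were 0.34, 0.22 and 0.15 at 1%, 4% and 8% oxygen, and again no member was called.

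Arrays of the same letter were also set side by side. In letter A the member median relative to the mean over all arrays was -0.60, -0.67 and -0.75 at 1%, 8% and 21% oxygen. In letter B it was -0.01, -0.08 and -0.22 at 4%, 8% and 21% oxygen. In letter F it was 0.05, -0.09, -0.20 and -0.26 at 1%, 4%, 8% and 21% oxygen. Within each letter the members were thus highest at the lowest oxygen level and lowest at 21%, and the medians over all probe sets did not follow that order.

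The differences from 21% oxygen within a letter were 0.16 and 0.41 at 1% oxygen (letters A and F), 0.19 and 0.28 at 4% (B and F) and 0.12, 0.11 and 0.18 at 8% (A, B and F). All 7 were above 0, and the matching medians over all probe sets ran from -0.03 to 0.02. Of the letter F arrays at 48 h, the one at 1% oxygen was the highest for 27 members and the one at 21% the lowest for 23, as for 32.3% and 29.0% of all probe sets. These are single arrays per level and letter, and give no test. At 2 h the same differences were 0.06 and -0.10 at 1% oxygen (E and F), -0.16 and -0.10 at 4% (D and F) and -0.05 at 8% (F), with no common side. At 0.5 h they were 0.14 at 1% oxygen (F), 0.05 at 4% (F) and 0.07 and 0.09 at 8% (C and G), beside medians over all probe sets of -0.04 to -0.01. These 4 were above 0 as well, so a common side was not particular to 48 h.

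**Figure D5:**
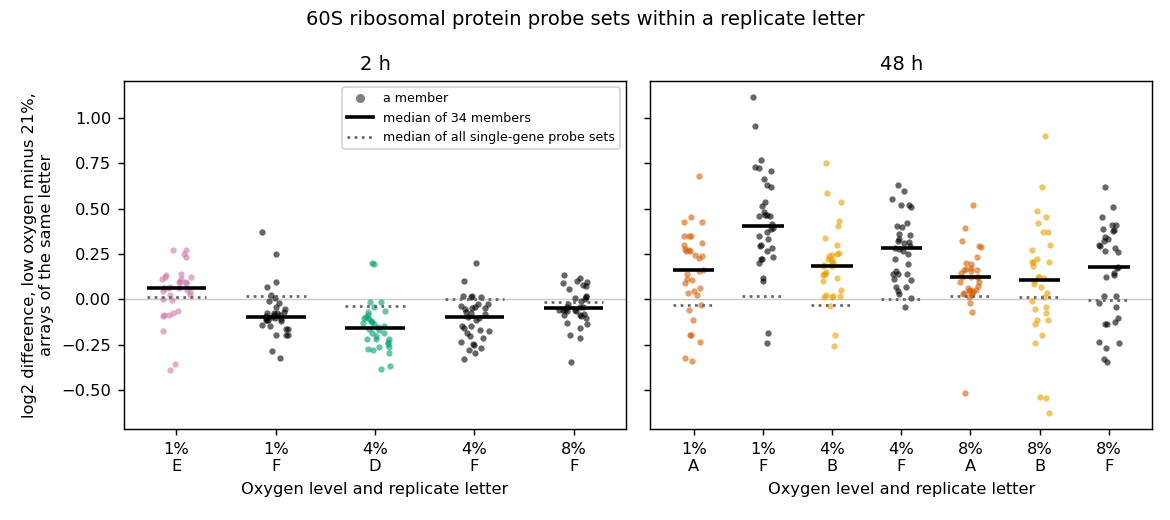
Log2 difference of each member between a low oxygen array and the 21% oxygen array of the same letter and duration, with the member median (black) and the median of all probe sets (dotted). All 7 member medians at 48 h lie above 0, from 0.11 to 0.41, and 4 of the 5 at 2 h lie below it.

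With the block, 16, 9 and 4 members had an unadjusted p under 0.05 at 1%, 4% and 8% oxygen after 48 h, where 15.4%, 10.5% and 7.32% of all probe sets had. As scaled the counts were 0, 2 and 0. The members closest to the threshold were AT1G27400 (L17) at 1% oxygen, with 0.51 ± 0.13 (SE) and an adjusted p of 0.0533 in limma with the block, and AT1G80750 (L7) at 4%, with 0.65 ± 0.12 and 0.0573. AT1G27400 read 806 and 948 in letters A and F at 1% oxygen, against 631 and 610 in the same letters at 21%. AT1G80750 read 279 and 195 in letters B and F at 4%, against 163 and 134 in the same letters at 21%. Each of these 1% arrays of AT1G27400 and 4% arrays of AT1G80750 lay above the 21% array of its letter. As scaled, the extremes at 1% oxygen were AT2G44120 (L7, 0.57), AT4G10450 (L9, 0.47) and AT5G60670 (L12, 0.45), and at the other end AT4G02230 (L19, -0.32), AT3G51190 (L8, -0.27) and AT1G67430 (L17, -0.08). The L19 paralogues lay on either side of 0 there, with 0.29 for AT3G16780 and -0.32 for AT4G02230, and neither was called apart from the member median.

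Whether the fall between 48 h and 2 h differed between low oxygen and 21% was tested as an interaction. No member was called at 1%, 4% or 8% oxygen, where 0.0518%, 0% and 0% of all probe sets were, or 0.466%, 0% and 0% with the block. The member medians of that difference were 0.15, 0.48 and 0.21, or 0.36, 0.28 and 0.20 with the block, where the counts of called members were also 0. At 1% oxygen the 0.15 was -0.18 without the 48 h array of letter F at 1% oxygen, 0.56 without its letter A array and -0.09 without the 48 h array of letter A at 21% oxygen. Without all arrays of letter A it was 0.36. With the block, 11, 8 and 2 members had an unadjusted p under 0.05, where 11%, 5.71% and 5.65% of all probe sets had. Within letter F the member median between 48 h and 2 h was -0.18, -0.31, -0.52 and -0.72 at 1%, 4%, 8% and 21% oxygen, which is a series of single array pairs.

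Other lists of genes of the translation machinery were counted between 48 h and 2 h in the same way. Of 48 further 60S probe sets 27 fell, with a median of -0.54, and of 47 probe sets of the 40S subunit 28 fell, with a median of -0.55. As scaled none of either list rose, and 11.6% of all probe sets fell. In the first, AT3G11250 fell by 1.12, and in the second AT4G30800 fell by 1.48 on the log2 scale. Of 12 probe sets of ribosome assembly 6 fell, among them AT5G14520 by 0.62 and AT3G23620 by 0.41. Of 7 probe sets of the plastid 50S subunit 1 fell and 1 rose, with AT4G01310 at a log2 difference of -0.50 and AT5G65220 at 0.60. Of 2 elongation factor probe sets AT5G12110 fell by 0.76.

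With the letter as a block 31 of the further 60S probe sets fell, with a median of -0.43, and of the 40S probe sets 29 fell and 1 rose, with a median of -0.46. Of the assembly probe sets 8 fell, and of the plastid 50S probe sets 1 fell and 2 rose, with a median of 0.06 with the block, against -0.30 as scaled. Without letter A 17 further 60S, 21 40S and 7 assembly probe sets fell. Of the plastid 50S probe sets 1 fell and 0 rose there. Within letter F 22 further 60S probe sets fell, 22 of the 40S fell and 1 rose, and 1 of the assembly list fell. Of the plastid 50S list 0 fell and 2 rose in letter F. Of all probe sets 17.4% fell with the block, 8.4% without letter A and 11.8% within letter F.

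A marker of dividing cells was also lower at 48 h. AT4G32830, the only 1 of 20 such genes with its own probe set, encodes an Aurora kinase of mitosis. It read 34.3 to 149 at 48 h, against 123 to 179 at 2 h, and differed by -1.03 (adjusted p = 0.000154 in limma), or by -1.004 with the block, -0.81 without letter A and -0.99 in letter F. Against 21% oxygen at 48 h it differed by -0.70, -0.16 and -0.38 at 1%, 4% and 8% oxygen, the opposite side of 0 from the member medians. None of these differences was called. The 21% arrays at 48 h read 61.7, 149 and 72.1 in letters A, B and F. In letter F the 1% array, at 75.9, was above the 21% array. The 4% and 8% arrays of letter F, at 60.8 and 58.1, were below it. The part of AT4G32830 in the fall of the members was not tested.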

How the data were processed

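The deposited table holds 1 signal intensity per probe set and sample for 22810 probe sets on 28 one-colour arrays. The submitters' processing notes name MAS5, and from the values the trimmed mean of each array (2% off each end) is 100. The authors' further steps, background settings and detection calls are not given in the sources used here. Genes were taken from the platform annotation through entrez IDs (RefSeq, TAIR10.1): 13513 probe sets had 1 gene, 503 several, 8730 none, and 64 were controls. No pair of arrays was identical.

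Intensities were kept as scaled by the authors, and log2(signal + 6) was fitted with limma 3.58.1 (R 4.3.3), with 1 mean per group, an intensity trend and 16 residual degrees of freedom, and Benjamini-Hochberg adjustment over all 13513 probe sets. The model was tested on simulated data with independent noise and no letter effect, so that test does not cover the differences between letters. There were 12 planned comparisons and 10 added after seeing the data, which cover 48 h against 2 h at each low oxygen level, the interactions at 4% and 8%, comparisons with 0.5 h and the mean of low oxygen. Leaving out letter A, and letter F alone, were also chosen after seeing the data.

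Replicate letters deviated together for 6 of 6 same-letter pairs of arrays at 0.5 h and 12 of 12 at 48 h (correlation over 0.1), and for 5 of 8 at 2 h. Pairs of different letters had median correlations of -0.233, -0.085 and -0.328 at 0.5, 2 and 48 h, and reached 0.464, 0.669 and 0.328. In a group of 2 arrays the deviations mirror each other, so these pairs are not independent. The fit with the letter as a block has 10 residual degrees of freedom.

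The genes named are those called in any comparison, the 3 highest and lowest in 1% against 21% oxygen at 2 h and 48 h and in 48 h against 2 h, the 4 with the widest range of group means, and paralogue pairs over 0.5 apart. The members and lists were chosen with earlier results of these data known. Protein families follow the usual Arabidopsis nomenclature. The number of arrays limits precision. Alternatives tried were quantile normalization, centring on the array median, a fit without the trend, a filter that drops 40% of probe sets by lowest mean, other pseudocounts (1.5 or 24), a fit of the compared durations alone, the letter block, and leaving out each array.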

Additional observations from a re-analysis of the deposited data

How the results depend on the processing

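No result changed sign among the single members called, under the alternatives run. The count of members called in 21% oxygen between 48 h and 2 h, 7 as reported, was 13 with quantile normalization, 13 without the dimmest 40% of probe sets, 3 when only the durations compared were fitted, 27 with the replicate block and 3 without letter A, and leaving out 1 array gave 0 to 10. For the average over oxygen levels, leaving out 1 array gave 15 to 24 members called, with 15 without the 1% oxygen 48 h array of letter A, and 9 without all arrays of letter A; 14 of the 23 called members kept their call with each array left out in turn, and 9 lost it at least once. The members apart from the other members numbered 17 as reported, 10 to 19 with 1 array left out (10 without the 1% oxygen 48 h array of letter A or the 4% oxygen 48 h array of letter B), and 9 without letter A. The member median at 4% oxygen after 48 h moved to 0.18 with the replicate block. The median at 1% oxygen after 48 h ran from -0.24 to 0.47 with 1 array left out, and that of the response to 1% oxygen from -0.18 to 0.56; it was -0.09 without the 21% oxygen 48 h array of letter A. At 1% oxygen after 48 h the scaling moved the median over all probe sets from -0.11 as scaled to 0.09 when centred, and the member median from 0.14 to 0.34. The cause of these moves was not tested. In the 9 comparisons of low oxygen with 21% oxygen 0 members were called as scaled, with the replicate block and under each other alternative run. The block moved the count of members called between 48 h and 2 h at 1%, 4% and 8% oxygen to 3, 7 and 12, against 0, 0 and 1 as scaled, and between 48 h and 0.5 h to 27, against 20 as scaled. Depth is not defined for arrays, and 2 of the 34 members, AT3G51190 and AT3G48960, were dim enough that their differences have only low precision.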
